A study of Mus musculus with 378 samples.

Results

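The ATP-sensitive potassium (KATP) channel and the voltage-gated calcium channels of the islet were followed through 6 transcripts, Abcc8, Kcnj11, Cacna1a, Cacna1c, Cacna1d and Cacnb2. They were taken by gene symbol from a table of 22180 genes, in which each symbol occurred once. All 6 passed the filter on low counts, which left 16927 genes. RNA came from pancreatic islets of female and male Diversity Outbred mice, with 1 library per mouse. Diversity Outbred mice are an outbred stock, so that each animal carries its own mix of founder genomes. Mice of both sexes had been fed a high-fat, high-sugar diet (45% fat) and had no other treatment in the labels, which give neither age nor genotype. Mouse numbers were divided into number bands of 100, starting at mouse 21. Females numbered 46, 46, 49 and 47 in bands 1 to 4, and males 45, 48, 50 and 47. In each band the females carry the lower numbers, apart from 1 female numbered among the males of band 2, so sex and the order within a band cannot be told apart.

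Total counts per library ran from 15120235 to 68757039 with a median of 34800405, and the libraries of band 4 were shallower, with a median of 23989678. The tissue label was checked against cell type markers. The 12 beta-cell markers summed to a median of 135578 CPM (counts scaled to an equal library total) in females and 163104 CPM in males. The 6 alpha-cell markers summed to 22202 CPM in females, against 10856 CPM in males. Markers of the exocrine tissue around the islets were present at very uneven levels: 11 acinar markers summed to between 46.95 and 39586 CPM in females and between 75.97 and 63490.1 CPM in males. The sex labels were checked with Xist, the transcript that silences one X chromosome in females. It was under 1 CPM in 2 libraries labelled female and over 100 CPM in 0 libraries labelled male. The 2 libraries with Xist under 1 CPM were kept as females, and whether their label is right was not tested further.

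In beta cells the KATP channel is the link between glucose metabolism and electrical activity. Its pore is formed by the inward rectifier Kir6.2, encoded by Kcnj11, and its regulatory subunit is the sulfonylurea receptor SUR1, encoded by Abcc8. When ATP rises, the channel closes, the membrane depolarises and voltage-gated calcium channels open, and the calcium that enters triggers the release of insulin. Calcium channel pores are single large proteins: Cacna1a encodes the P/Q-type pore, and Cacna1c and Cacna1d encode L-type pores. Cacnb2 encodes a cytoplasmic beta subunit, which binds the pores and brings them to the membrane.

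Abcc8 (ENSMUSG00000040136) and Kcnj11 (ENSMUSG00000096146) are neighbours on the minus strand of mouse chromosome 7. In the deposited gene table, whose coordinates follow GRCm38, Abcc8 spans chr7:46104523-46180033 and Kcnj11 spans chr7:46098725-46099897, with 4625 bases between them. Kcnj11 has a single coding exon. The interval deposited for it is 1173 bases long. It holds exactly the coding sequence, from start codon to stop codon, as read from the transcripts of GENCODE mouse release M21. The same release gives Kcnj11 a span of 6812 bases and 3677 bases of exon, so the untranslated ends lie outside the deposited interval. Both ends of that interval are shown on the coding strand, because the level of Kcnj11 per length depends on it, with the start or stop codon in capitals.
Kcnj11 first 60 bases, chr7:46099838-46099897: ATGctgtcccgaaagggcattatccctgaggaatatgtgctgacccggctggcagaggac
Kcnj11 last 60 bases, chr7:46098725-46098784: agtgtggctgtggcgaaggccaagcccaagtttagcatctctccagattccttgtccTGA

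The calcium channel genes are long and lie on 4 chromosomes. Cacna1a (ENSMUSG00000034656) spans chr8:84388440-84640246 on the plus strand, Cacna1c (ENSMUSG00000051331) spans chr6:118587240-119196418 on the minus strand, and Cacna1d (ENSMUSG00000015968) spans chr14:30039949-30491156 on the minus strand. Cacnb2 (ENSMUSG00000057914) spans chr2:14603088-14987908 on the plus strand. The 3 pores share the alpha interaction domain, the stretch between the first 2 repeats of the channel to which a beta subunit such as that of Cacnb2 binds. Its 54 coding bases are shown because the pore and the beta subunit meet there in the protein, on the coding strand and with bases identical in all 3 genes in capitals.
Cacna1a, exons 8 and 9 of transcript Cacna1a-201, chr8:84536125-84536403 with an intron between: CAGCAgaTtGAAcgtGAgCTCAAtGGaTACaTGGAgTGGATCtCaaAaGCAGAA
Cacna1c, exon 9 of transcript Cacna1c-201, chr6:118734906-118734959: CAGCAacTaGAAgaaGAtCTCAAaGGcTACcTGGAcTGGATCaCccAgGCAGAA
Cacna1d, exon 9 of transcript Cacna1d-201, chr14:30142600-30142653: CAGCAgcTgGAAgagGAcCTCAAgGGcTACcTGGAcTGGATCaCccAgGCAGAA

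Of these 54 bases, 39 were identical in all 3 genes, and the L-type genes Cacna1c and Cacna1d were identical at 49. The longest run that Cacna1c and Cacna1d had in common there was 30 bases, and no stretch of 50 bases in their GENCODE transcripts was shared between any members. Sequence shared with other genes was limited. Abcc8, Kcnj11 and Cacna1c shared no 50-base stretch with another gene's transcripts. Cacna1a shared 2.50% of its 50-base stretches with Gm16183, an antisense gene inside it, and Cacna1d shared 4.18% with its antisense neighbour Chdh. Cacnb2 shared 5.90%, spread over 17 genes, and 524 of its 788 shared stretches matched Gm10849. In the deposited estimated counts, Abcc8, Kcnj11 and Cacna1c were exactly whole numbers, with no tolerance, in 100% of the libraries, Cacnb2 in 65.9%, and Cacna1a and Cacna1d in 0%. Fractional counts can arise where a read is divided between genes, and with which genes this was done was not tested.

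Abcc8 was the most abundant of the 6 transcripts per length of exon. It reached 41.4, 78.7 and 128.2 CPM per kb as the lowest, median and highest values in females, and 44.5, 83.5 and 145.996 in males. Kcnj11 followed at a median of 40.04 CPM per kb in females and 40.8 in males, counted over its 1.173 kb. The pores came next, with Cacna1d at a median of 11.2 CPM per kb in females and 11.6 in males, and Cacna1a at 6.65 and 6.43 CPM per kb in females and males. Cacna1c had a median of 3.195 CPM per kb in females and 3.42 in males, and Cacnb2 had 2.95 in females and 3.11 in males. Abcc8 exceeded Kcnj11 per kb in all but 3 libraries, and at these lengths both KATP subunits exceeded each calcium channel gene in every library. Cacna1d exceeded Cacna1a in 89.4% of libraries and Cacna1c in every one, and Cacna1a exceeded Cacna1c in 98.1%. Cacna1c and Cacnb2 could not be ordered, since Cacna1c was the higher in 59.3% of libraries.

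The length taken for a gene bears on this order. Over all 3677 bases of its GENCODE exons, Kcnj11 averaged 13.97 CPM per kb instead of 43.8, beside Cacna1d at 11.1 over all of its own exons. At these lengths Kcnj11 exceeded Cacna1d in 75.1% of libraries and Cacna1a in all but 3. With the longest transcript as the length, Cacnb2 averaged 8.04 CPM per kb and Cacna1c 5.62, against 3.06 and 3.49 over all exons, so these genes changed places. Per kb of exon within the deposited intervals, the ratio of Abcc8 to Kcnj11 had a median of 1.89 in females and 1.91 in males, and 90% of libraries lay between 1.33 and 2.55. Over all exons the median was 5.94 in females and 5.98 in males, so the size of the ratio rests on the length taken for Kcnj11. Cacna1d stood at a median of 3.50 times Cacna1c in females and 3.38 times in males.

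Females and males overlapped almost completely for every member, which can be seen in the plot of levels by sex. Abcc8 had 334.6, 636.7 and 1037 CPM as the lowest, median and highest values in females, and 359.9, 675.8 and 1181 CPM in males. Kcnj11 had 20.04, 46.97 and 101.6 CPM in females, and 31.005, 47.8 and 91.2 CPM in males. Cacna1a had 24.6, 75.9 and 182.3 CPM in females, and 32.8, 73.4 and 188.6 CPM in males. Its range was the widest of the 6, with the highest library of the series 7.66 times the lowest. The lowest was a library of band 2 and the highest one of band 4, where Cacna1a was high. With sex and band removed, Cacna1c had the wider spread (SD of log2 CPM 0.382, against 0.360 for Cacna1a). Cacna1c had 35.999, 67.7 and 125.3 CPM in females, and 39.4, 72.5 and 161.1 CPM in males. Cacna1d had 62.96, 138.1 and 195.4 CPM in females, and 88.97, 143.2 and 207.7 CPM in males. Cacnb2 had 25.8, 39.1 and 53.2 CPM in females, and 23.6, 41.2 and 53.9 CPM in males. It was the most even of the 6, with a highest value 2.28 times the lowest.

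**Figure D1:**
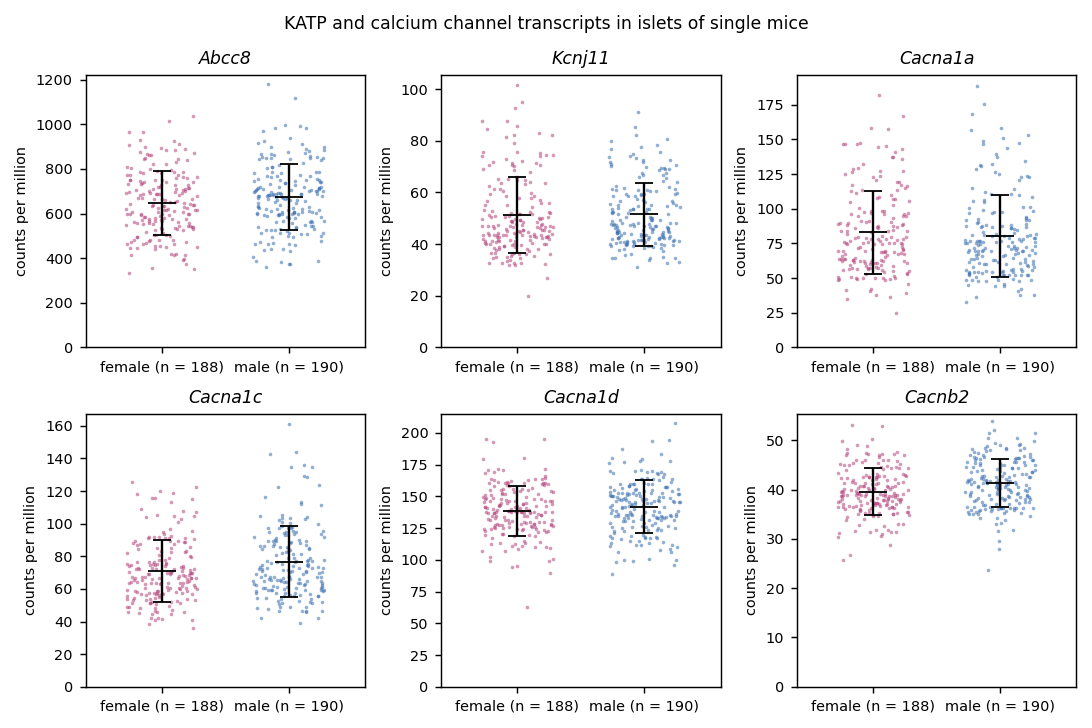
CPM of the 6 transcripts in each female library (left) and each male library (right), with the mean and SD as bars and the vertical axes starting at 0. The sexes overlap over nearly the whole range in every panel, and Cacna1a has the widest and Cacnb2 the narrowest spread relative to its level.

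The question that the sex labels allow is whether the channels differ between female and male islets. Cacna1c and Cacnb2 were lower in females, and by little. Cacna1c averaged 71.1 ± 19.0 CPM in females, against 76.7 ± 21.9 CPM in males (SD over mice). Its log2 difference, female minus male with number band as a term, was -0.10 with a standard error of 0.0395 (edgeR quasi-likelihood test, adjusted p = 0.0198). Cacnb2 averaged 39.6 ± 4.77 CPM in females, against 41.3 ± 4.92 CPM in males, with a log2 difference of -0.061 and a standard error of 0.0178 (edgeR, adjusted p = 0.00217). Thus 2 of the 6 members passed the threshold of 0.05, both lower in females, while 50.6% of all tested genes passed it, 21.7% higher and 28.8% lower in females. A count of 2 in 6 is no more than that background. Without the 2 libraries labelled female that had Xist under 1 CPM, the difference was -0.10 for Cacna1c (edgeR, adjusted p = 0.01997) and -0.062 for Cacnb2 (edgeR, adjusted p = 0.00183), and no other member passed. As these are bulk islets, fewer cells of a type and less RNA per cell cannot be told apart.

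The other 4 members did not pass. Abcc8 averaged 646.6 ± 144.6 CPM in females, against 673.0 ± 147.4 CPM in males, a log2 difference of -0.063 with a 95% interval from -0.12 to -0.0055 (edgeR, adjusted p = 0.0616). Kcnj11 averaged 51.2 ± 14.7 CPM in females, against 51.5 ± 12.3 CPM in males, with an interval from -0.073 to 0.021 (edgeR, adjusted p = 0.376). For Cacna1a the means were 82.95 ± 29.8 CPM in females, against 80.3 ± 29.8 CPM in males, and the interval ran from -0.035 to 0.11 (edgeR, adjusted p = 0.426). For Cacna1d they were 138.6 ± 19.8 CPM in females, against 141.8 ± 20.6 CPM in males, with an interval from -0.072 to 0.0091 (edgeR, adjusted p = 0.201). On the linear scale the widest of these intervals, that of Cacna1a, reached from 0.976 to 1.08 times the male level. The differences between the sexes were therefore small next to the differences between mice.

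Within single bands the sex differences were uneven, as the plot of sex differences shows. Cacnb2 was lower in females in each band, by log2 differences of -0.054, -0.031, -0.061 and -0.085 in bands 1 to 4, and passed the test in band 4 alone. Cacna1c differed by -0.017, -0.23, -0.20 and 0.049 in bands 1 to 4 and passed in band 2 alone. In band 2, Abcc8, Kcnj11, Cacna1c and Cacna1d were lower in females, by -0.18, -0.12, -0.23 and -0.11. None of the 6 members had a sex difference that varied between bands in the edgeR interaction test after adjustment (adjusted p from 0.155 to 0.897). After adjustment, 1.09% of all genes passed. Before adjustment, the p in that test was 0.0108 for Kcnj11, 0.0307 for Cacna1c and 0.0173 for Cacna1d. No share of all genes at an unadjusted threshold is given to set beside them. Without band 4, Cacna1c was still lower (log2 -0.15, adjusted p = 0.00522), Cacnb2 no longer passed (-0.046, adjusted p = 0.0624), and Abcc8 (-0.084, adjusted p = 0.0354) and Cacna1d (-0.059, adjusted p = 0.0357) did, all by edgeR. With library size as the only scaling no member passed, and the split over all genes turned to 5448 higher and 3192 lower in females, against 3678 and 4883 with TMM factors.

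**Figure D2:**
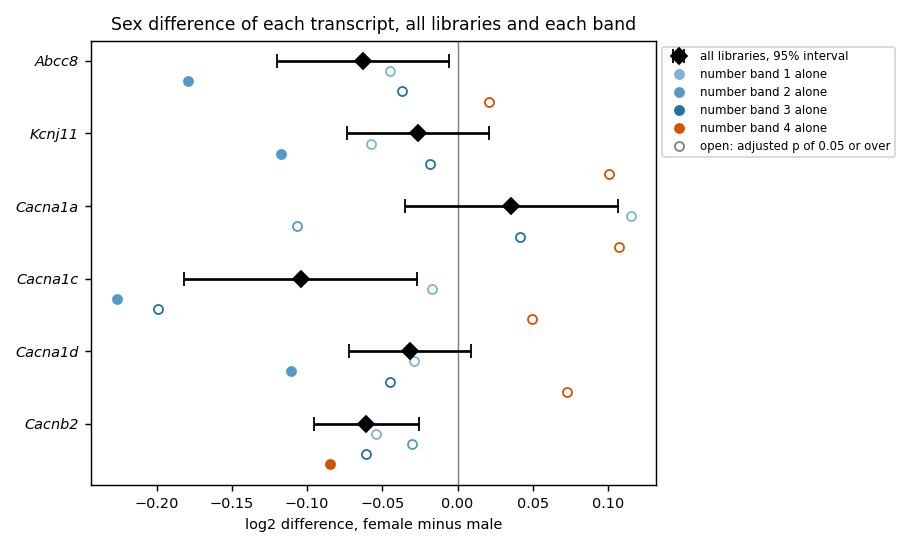
Log2 difference, female minus male, for each member over all libraries (diamonds, with 95% intervals) and within each number band (circles, filled where the adjusted p is under 0.05). The intervals of Abcc8, Cacna1c and Cacnb2 lie below 0, of which Cacna1c and Cacnb2 passed after adjustment. For every member but Cacnb2, the value of band 4 lies above 0 and is open.

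The spread between mice differed among the members. With sex and band removed, the SD of log2 CPM was 0.382 for Cacna1c, 0.360 for Cacna1a, 0.290 for Abcc8, 0.236 for Kcnj11, 0.205 for Cacna1d and 0.174 for Cacnb2. Among 11108 genes of mean CPM at least 5, whose median SD was 0.238, 77.998% had a smaller SD than Cacna1c and 21.3% had a smaller one than Cacnb2. The L-type pores stood apart from each other here, since 36.5% of genes had a smaller SD than Cacna1d. The biological coefficient of variation from edgeR was 26.4% for Cacna1c, 24.2% for Cacna1a, 19.7% for Abcc8, 16.1% for Kcnj11, 13.9% for Cacna1d and 11.8% for Cacnb2, beside a median of 16.2%. Spread was also compared between the sexes with limma on absolute deviations. No member passed (0 of 6, adjusted p from 0.522 to 0.997, and 0 of 6 at an unadjusted p under 0.05), where 4.96% of all genes did, 0.0907% with the wider spread in females and 4.87% with the narrower. For example, the SD of Cacna1a within bands was 0.337 in females and 0.376 in males.

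Several members differed more by number band than by sex. For Cacna1a, Kcnj11 and Abcc8 it was band 4 that stood apart, and the members did not follow it in the same way. Cacna1a had a median of 120.7 CPM in band 4, against 64.3, 69.1 and 69.3 CPM in bands 1, 2 and 3, a log2 difference of 0.86 between bands 4 and 1 (edgeR over the 3 band terms, adjusted p = 4.25e-59). Kcnj11 had 70.4 CPM in band 4, against 45.2, 43.9 and 44.4 CPM in bands 1, 2 and 3, a difference of 0.62 (edgeR, adjusted p = 2.42e-72). Abcc8 had 803.2 CPM in band 4, against 609.9, 631.3 and 607.1 CPM, a difference of 0.37 (edgeR, adjusted p = 1.44e-20). The L-type pore Cacna1d went the other way, at 128.9 CPM in band 4 against 148.03, 142.003 and 143.5 CPM, a difference of -0.20 (edgeR, adjusted p = 3.19e-09). Cacnb2 differed by 0.093 between bands 4 and 1 (edgeR, adjusted p = 0.00318), and Cacna1c by -0.038, which did not pass (edgeR, adjusted p = 0.143).

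So 5 of the 6 members differed by band, where 87.9% of all tested genes did. In the plot of levels by band, Abcc8, Kcnj11 and Cacna1a shift in band 4. Cacna1d differed from band 1 by -0.084 and -0.074 in bands 2 and 3 before its -0.20 in band 4, and Cacnb2 by 0.066 and 0.069 in bands 2 and 3, close to its 0.093 in band 4. Values of base composition moved with band 4. Across 16867 genes with a known GC content, the log2 difference between bands 4 and 1 followed GC content with a Spearman rho of 0.746 (rho 0.120 for band 2 and 0.230 for band 3). The transcripts of Cacna1a, Abcc8 and Kcnj11 had GC contents of 58.4%, 57.3% and 57.1%, higher than those of 92.5%, 89.1% and 88.1% of genes. Cacna1c had 50.3%, Cacna1d 49.6% and Cacnb2 38.97%. Whether base composition, the lower depth or something else about band 4 took part in the shift was not tested. The labels do not say what a band stands for. Set side by side, Cacna1d was 1.05 times Cacna1a per kb at the median of band 4, against 2.09, 1.86 and 1.91 times in bands 1, 2 and 3.

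**Figure D3:**
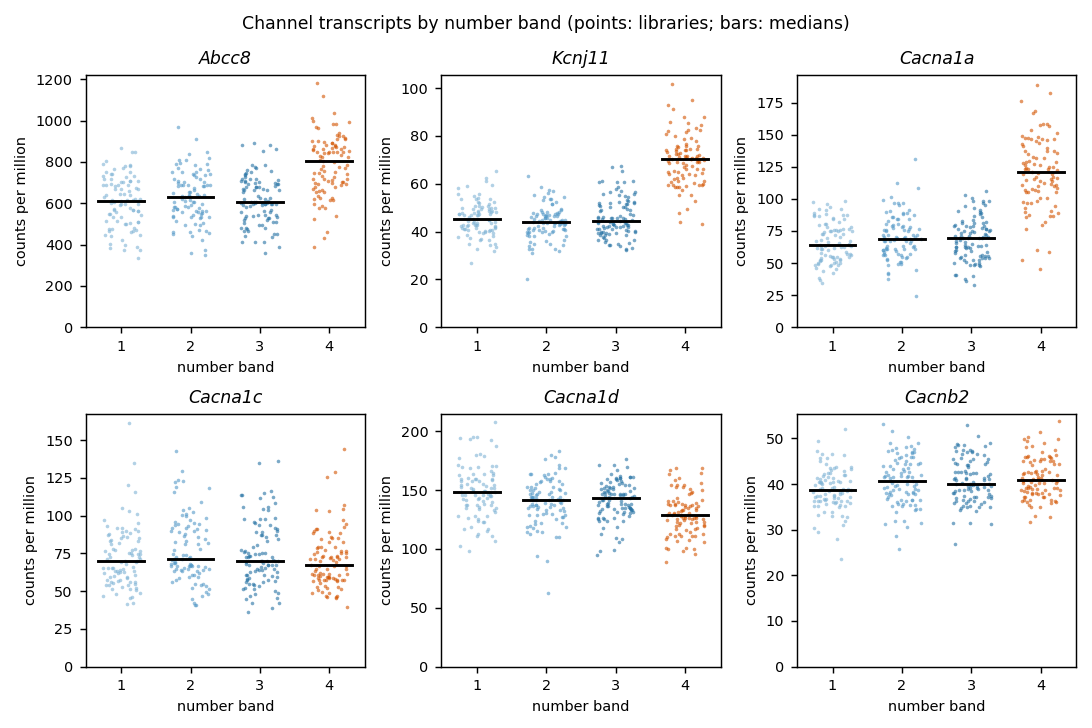
CPM of the 6 transcripts in every library of number bands 1 to 4 (n = 91, 94, 99 and 94), with horizontal bars at the medians. Abcc8, Kcnj11 and Cacna1a are high in band 4, Cacna1d is low there, and Cacna1c and Cacnb2 stay near their level in the other bands.

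The members were then compared with each other across mice, on log2 CPM with sex and number band removed. The KATP subunits went together most closely. Mice with high Abcc8 had high Kcnj11, with a Pearson's r of 0.504 and a Spearman's rho of 0.507 over all libraries (permutation p = 1e-05 for both, the smallest that the resamples can give). Adjusted over all genes, the p was 5.83e-22 in limma, and r was 0.493 without the 2 libraries farthest from the median of Abcc8. Among the 16926 other genes, Kcnj11 had the second-highest r with Abcc8, while for Kcnj11 98.5% of genes had a lower r than Abcc8. Within bands 1 to 4 the r was 0.533, 0.551, 0.536 and 0.351, and it was 0.562 in females and 0.430 in males. No difference in slope between the sexes (limma interaction, adjusted p = 0.560, unadjusted p = 0.0468) or between bands (adjusted p = 0.775) passed the threshold.

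Among the calcium channels, the P/Q-type pore Cacna1a went with both L-type pores. Its r was 0.391 with Cacna1d (rho 0.287, adjusted p = 1.92e-13 in limma) and 0.337 with Cacna1c (rho 0.315, adjusted p = 3.68e-10 in limma). The L-type pores had a lower r with each other, 0.202 (rho 0.192, adjusted p = 3.56e-04 in limma). Between the channel types, Kcnj11 went with Cacna1d at an r of 0.330 (rho 0.239) and with Cacna1a at 0.235 (rho 0.135), and Abcc8 with them at 0.255 and 0.245 (rho 0.222 and 0.207). Abcc8 and Cacna1c had an r of 0.163 (rho 0.174), and Kcnj11 and Cacna1c one of 0.00299 (rho 0.0137), which did not pass. The beta subunit Cacnb2 went with Kcnj11 (r 0.236, rho 0.193) and Cacna1d (r 0.212, rho 0.171). It did not pass with Abcc8 (r 0.00338, rho -0.0250) or with Cacna1a (r 0.107, rho 0.0377, adjusted p = 0.0801 in limma). Without the 2 farthest libraries, Cacna1a had an r of 0.337 with both Cacna1d and Cacna1c, and Cacna1c had 0.194 with Cacna1d. Kcnj11 then had 0.265 with Cacna1d, 0.174 with Cacna1a and 0.206 with Cacnb2. Abcc8 had 0.246 with Cacna1d, 0.229 with Cacna1a and 0.169 with Cacna1c, and Cacna1d had 0.166 with Cacnb2. Kcnj11, Cacna1a and Cacna1d had their lowest CPM in the same female library of band 2.

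One pair was opposed. Mice with high Cacna1c had low Cacnb2, with an r of -0.237 (rho -0.241, permutation p = 2e-05, adjusted p = 2.23e-05 in limma). This value was -0.312 in females and -0.159 in males, where it did not pass (adjusted p = 0.101), and -0.0364, -0.466, -0.181 and -0.231 in bands 1 to 4, of which band 2 alone passed. In all, 11 of the 15 pairs passed with a positive and 1 with a negative r, and the permutation p of the 12 was at most 0.00235. Correlations of this kind were frequent among all genes of these libraries. By the same test, 44.6% of all genes were correlated with Abcc8, 55.9% with Kcnj11, 45.2% with Cacna1a, 45.9% with Cacna1c, 52% with Cacna1d and 33.6% with Cacnb2. The positive share was 21.8% for Abcc8, 27.5% for Kcnj11, 21.5% for Cacna1a, 22.2% for Cacna1c, 23.9% for Cacna1d and 17.7% for Cacnb2. The negative share was 22.8%, 28.4%, 23.7%, 23.8%, 28.1% and 15.8% in the same order. A difference in slope by sex or by band passed in 0 of the 15 pairs after adjustment in limma. Pairs were not counted at an unadjusted threshold, for which no share of all genes is given. The lowest unadjusted p in limma was 0.00213 by sex, for Cacna1a with Cacna1d, and 0.00117 by band, for Abcc8 with Cacnb2. That pair had an r of 0.308, -0.135, 0.0615 and -0.234 in bands 1 to 4, of which band 1 alone passed (adjusted p = 0.0375 in limma). Over all genes, a slope that differed by sex after adjustment was found for 0% with Abcc8, 8.75% with Kcnj11, 0.00591% with Cacna1a, 0% with Cacna1c and 2.42% with Cacna1d. By band the shares were 0%, 5.65%, 0.0532%, 0.0295% and 0.484% in that order.

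**Figure D4:**
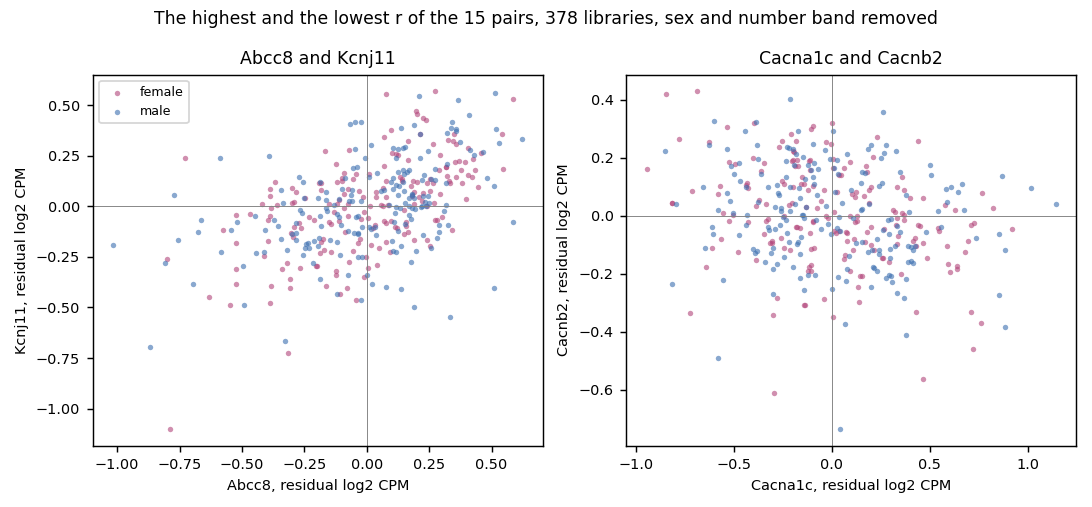
Residual log2 CPM, with sex and number band removed, of Kcnj11 against Abcc8 (left) and of Cacnb2 against Cacna1c (right), one point per female or male library. The left cloud rises with an r of 0.504 and the right one falls with an r of -0.237, and females and males lie in the same range in both.

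Properties of the libraries moved with these correlations. For each library, a slope of its residual log2 CPM on GC content and one on transcript length were fitted across all genes. Over 96 relations of members with library measures and marker scores, Kcnj11 followed the GC slope with an r of 0.604 (rho 0.560) and Abcc8 with 0.482 (rho 0.470). The r of Cacna1a was 0.312, that of Cacna1c 0.256, that of Cacna1d 0.228, and that of Cacnb2 0.0192 (rho 0.252, 0.258, 0.162 and 0.0125). With the length slope the order was another one. Cacna1d followed it at an r of 0.619 (rho 0.492), Cacna1a at 0.430 (rho 0.259), Cacnb2 at 0.329 (rho 0.255), Kcnj11 at 0.293 (rho 0.146), Cacna1c at 0.200 (rho 0.182) and Abcc8 at 0.141 (rho 0.0362). Except for Cacnb2 with the GC slope, each of these r had a permutation p, adjusted over the 96 relations, of at most 0.0302. By rank, Abcc8 with the length slope did not pass (adjusted permutation p of rho 0.600), and its r was 0.101 without the 2 farthest libraries. Without the 2 farthest libraries, Kcnj11 with the GC slope had an r of 0.584 and Cacna1d with the length slope one of 0.585. No relation of a member with total counts passed (r from -0.0643 to -0.00576, adjusted p at least 0.330). The share of counts from mitochondrially encoded genes had an r of -0.254 with Abcc8, -0.209 with Cacna1a, -0.179 with Cacna1c and -0.173 with Kcnj11 (rho -0.251, -0.129, -0.132 and -0.149). The share of the 100 most counted genes had one of -0.416 with Cacna1d, -0.273 with Cacna1a and -0.262 with Cacnb2 (rho -0.363, -0.199 and -0.207). The permutation p of these 7 r, adjusted over the same relations, was at most 0.00611, and the other members did not pass. Without the 2 farthest libraries they were -0.260, -0.172, -0.148 and -0.148 for the mitochondrial share and -0.403, -0.247 and -0.233 for the other one. Their part in the correlations was not tested.

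When both slopes were removed as well, 4 pairs passed with a positive and 2 with a negative r. The share of all genes that passed in this setting is not given here. Whether the lower count is particular to the members therefore cannot be read from it. Abcc8 and Kcnj11 still went together, at a lower r of 0.291 (adjusted p = 5.45e-06 in limma), and 99.9% of genes had a lower r with Abcc8 in that setting. Cacna1a with Cacna1c (0.230), Kcnj11 with Cacnb2 (0.208) and Abcc8 with Cacna1d (0.140) also stayed positive. Cacna1c and Cacnb2 were opposed more strongly, at -0.332 (adjusted p = 1.09e-09 in limma), and Kcnj11 and Cacna1c became opposed, at -0.261 (adjusted p = 6.30e-06 in limma). Cacna1a with Cacna1d (0.125, adjusted p = 0.0941) and Kcnj11 with Cacna1d (0.101, adjusted p = 0.121) no longer passed. Whether the slopes arise from the libraries or from the islets was not tested. This setting was chosen after the data were seen.

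**Figure D5:**
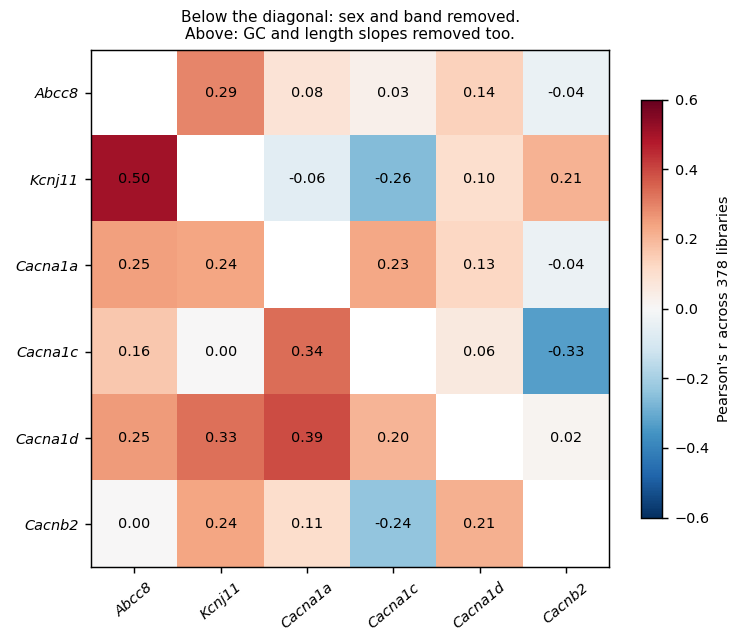
Pearson's r of the 15 pairs across all libraries on a red to blue scale, with sex and number band removed (below the diagonal) and with the GC and length slopes of each library removed too (above it). Abcc8 with Kcnj11 is the highest r in both parts, and Cacna1c with Cacnb2 the lowest.

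The nearest transcripts were listed for each member, and some of them were closer to another member. For Kcnj11 the highest r belonged to the chromatin protein gene Rai1 (0.757), Sbf1 (0.696), the repressor Cic (0.686) and the collagen receptor Ddr1 (0.676). The lowest belonged to the peroxiredoxin Prdx1 (-0.596), the vesicle tethering subunit Trappc6b (-0.586) and the calcium-binding Calu (-0.577). For Abcc8 they were Fuz, which acts in ciliogenesis (0.505), Kcnj11 (0.504), Pcnxl3 (0.501), the transcription activator Camta2 (0.488) and Nav2 (0.486), with Zfp35 (-0.499), the NEDD8-activating enzyme subunit Uba3 (-0.496) and Zfp617 (-0.494) at the low end. Camta2 was also high with Kcnj11 (0.562) and Cacna1d (0.565), and Pcnxl3 with Kcnj11 (0.536). Fuz and Nav2 had a lower r with Kcnj11 (0.415 and 0.315) than with Abcc8.

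The pores were listed in the same way. Cacna1c went with the adhesion protein gene Lpp (0.700), the Notch coactivator Maml3 (0.687), the receptor Igf1r (0.636), the adhesion gene Sdk2 (0.619) and the junction scaffold Inadl (0.595). Its lowest values were for Cfap20 (-0.635), the nuclear export receptor Xpo1 (-0.597) and the splicing factor Rbm39 (-0.596). Cacna1d went with the ubiquitin ligase Huwe1 (0.679), Prrc2b (0.676), Unc80, a subunit of the sodium leak channel complex (0.671), Pcnx (0.667) and the coactivator Ncoa1 (0.665), and was lowest with thioredoxin Txn1 (-0.585), Rps27l (-0.567) and the ATP synthase subunit Atp5f1 (-0.547). Cacna1a went with the splicing factor Srrm2 (0.548), the dynein heavy chain Dync1h1 (0.547), Spen (0.520) and the nuclear pore gene Nup214 (0.518). Prdx2 (-0.548), Lsm6 (-0.512) and the mitochondrial ribosome gene Mrps23 (-0.508) were its lowest. Dync1h1, Spen and Nup214 had a higher r with Cacna1d (0.560, 0.603 and 0.569) than with Cacna1a, and Srrm2 a lower one (0.543). Lpp, with the highest r of all ranked genes for Cacna1c, had an r of 0.0680 with the other L-type pore Cacna1d.

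Cacnb2 had the myosin phosphatase subunit Ppp1r12b (0.495), the mTORC2 subunit Rictor (0.486), Arhgap21 (0.483), the receptor adaptor Frs2 (0.471) and the scaffold Iqgap1 (0.468) as its highest. Its lowest were Gsdma (-0.374), the copper chaperone Atox1 (-0.371) and Mrpl27 (-0.348). Ppp1r12b was at -0.338 with Cacna1c and Gsdma at 0.383, so both had opposite signs with the opposed pair. Across all genes, the r with Abcc8 followed GC content at a Spearman rho of 0.598, that with Kcnj11 at 0.540, with Cacna1a at 0.364, with Cacna1c at 0.311, with Cacna1d at 0.198 and with Cacnb2 at -0.0535. These are descriptions across genes that share libraries. Each of the highest and lowest values named for a member passed the limma test over all genes (adjusted p at most 6.30e-10).

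Cell type marker scores were next set beside the members. The largest r, 0.359, belonged to Kcnj11 with the beta-cell score, the mean log2 CPM of the 12 markers (rho 0.361, permutation p = 1e-05, adjusted p = 6.40e-05, and 0.340 without the 2 farthest libraries). Cacna1d followed it at 0.192 (rho 0.201, adjusted p = 7.77e-04), while Cacnb2 had 0.100, Abcc8 0.0655, Cacna1c 0.0566 and Cacna1a 0.00762, which did not pass. Kcnj11 also followed the delta and PP score (r 0.238, rho 0.247). Among the other relations that passed, Cacnb2 was lower in libraries with a higher acinar score (r -0.248, rho -0.221), Cacna1c with a higher macrophage score (r -0.181, rho -0.176), and Cacna1d with a higher stellate and fibroblast score (r -0.205, rho -0.211) and a higher macrophage score (r -0.195, rho -0.202). Cacna1d was higher in libraries with a higher lymphocyte score, which rests on 1 tested gene (r 0.240, rho 0.265, adjusted p = 6.40e-05). With all 11 marker scores removed, Abcc8 and Kcnj11 had an r of 0.506. The part of cell composition in the correlations was not tested.

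On chromosome 7, genes near the KATP pair were read as well. Of 60 tested genes that reach within 1 Mb of either end of Abcc8, 25 had a positive and 13 a negative r that passed, where 21.8% and 22.8% of all genes did. The highest were Kcnj11 and the sphingosine kinase Sphk2 (0.470), and the lowest was Uevld (-0.461). For Kcnj11, 20 of 61 such genes passed with a positive and 14 with a negative r (background 27.5% and 28.4%). Sphk2 was the highest there (0.516), above Abcc8, and Tsg101, which sorts membrane proteins, was the lowest (-0.532).

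The other genes of the same pathway were read from lists. Of the other calcium channel subunits, 17 of 22 were tested. Among these, 9 were higher and 1 was lower in females, beside 21.7% and 28.8% of all genes. Their median log2 difference was 0.31, beside -0.011 over all genes. The auxiliary subunit Cacna2d3 averaged 2.59 CPM in females, against 1.55 CPM in males (log2 0.74, adjusted p = 1.45e-18). Cacng4 averaged 6.29 CPM in females, against 4.23 CPM in males (0.58, adjusted p = 4.22e-16), and the R-type pore Cacna1e 2.90 CPM in females, against 1.97 CPM in males (0.56, adjusted p = 4.15e-12). Cacna2d4 differed by 0.49, and the L-type pore Cacna1f, at 0.613 CPM in females, against 0.903 CPM in males, by -0.56. All adjusted p-values here are from edgeR. Beside this, the 6 alpha-cell markers, all detected, summed to between 5937 and 68825 CPM in females and between 1397 and 41758 CPM in males, and their part in these differences was not tested. With the members, the N-type pore Cacna1b had the highest mean r of the list (0.240) and Cacnb4 the lowest (-0.0892).

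The potassium channels were read next. Of the 2 other KATP subunits, Abcc9 was lower in females, at 5.74 CPM against 6.93 CPM in males (log2 -0.28, adjusted p = 3.63e-05), and Kcnj8 did not pass (-0.16, adjusted p = 0.0698). Both had a negative r with Kcnj11 (-0.272 and -0.175) and values near 0 with Abcc8. Among 22 repolarising and leak channels, 7 were higher and 11 lower in females (beside 21.7% and 28.8% of all genes), among them Kcnn3 at 48.03 CPM in females, against 64.1 CPM in males (-0.42) and Kcnk3 at 30.2 CPM in females, against 22.9 CPM in males (0.42). Kcns3 (-1.02) and Kcnc4 (0.90) had the widest differences, at mean levels of at most 1.86 CPM. By mean r with the members, Kcnma1 had 0.226, and Kcnmb2 was the lowest of the list (-0.124).

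Downstream of calcium entry, 7 of 20 exocytosis genes were higher and 7 lower in females, beside 21.7% and 28.8% of all genes. The syntaxin Stx1a averaged 23.8 CPM in females, against 18.3 CPM in males (log2 0.38, adjusted p = 1.05e-23), while Syt13 averaged 441.4 CPM in females, against 539.0 CPM in males (-0.29, adjusted p = 5.68e-15). Syt1 (0.39) and Rab3a (-0.20) also differed. Rimbp2, whose protein ties calcium channels to release sites, and Unc13a, whose protein primes vesicles for release, had mean r values of 0.352 and 0.346 with the members. Rimbp2 reached 0.535 with Cacna1d and Unc13a 0.508 with Cacna1a, and Syt9 was the lowest (-0.0370). With a positive r, 14 of the 20 passed with Cacna1c, 12 each with Abcc8 and Cacna1d, 11 each with Kcnj11 and Cacna1a and 5 with Cacnb2. Over all genes the positive shares were 22.2% for Cacna1c, 21.8% for Abcc8, 23.9% for Cacna1d, 27.5% for Kcnj11, 21.5% for Cacna1a and 17.7% for Cacnb2. Among 12 store and pump genes, 10 each passed with a positive r with Cacna1d and Kcnj11, 9 with Cacna1a, 6 with Cacnb2 and 5 each with Abcc8 and Cacna1c, beside the same shares of all genes. With Cacna1c, 3 of the 12 passed with a negative r, where 23.8% of all genes did. The pump Atp2a3 had the highest mean r (0.287), with Itpr3 (0.256) and Atp2a2 (0.239) after it and Itpr2 (0.0369) last. By sex, 3 were higher and 4 lower in females in this list, beside 21.7% and 28.8% of all genes. Itpr1 led them at 75.6 CPM in females, against 55.98 CPM in males (0.44), with Atp2a3 (-0.25), Stim1 (-0.21) and Slc8a1 (-0.16).

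Upstream, 8 glucose entry and phosphorylation genes were read in the same way. With a positive r, 4 each passed with Kcnj11 and Cacna1d, where 27.5% and 23.9% of all genes did, and 1 passed with Abcc8, where 21.8% did. The pyruvate carboxylase gene Pcx had the highest mean r (0.218), Gpd2 (0.0700) and Slc2a2 (0.0573) followed, and Mpc1 had the lowest (-0.120). Mpc1 (log2 0.22) and Gckr (0.18) were higher and G6pc2 (-0.11) lower in females, and Mpc2 (-0.041) did not pass. Of 14 islet transcription factors, 2 were higher and 8 lower in females, beside 21.7% and 28.8% of all genes. Among the lower ones were Rfx6 (-0.39), Nkx2-2 (-0.29) and Insm1 (-0.26). By mean r with the members, Nkx2-2 had 0.234 and Nkx6-1 0.229, and Rfx6 was the lowest of the list (-0.0678). In 12 sodium and TRP channel genes, 1 was higher and 4 were lower in females, beside the same shares of all genes. Trpc4 averaged 8.997 CPM in females, against 14.2 CPM in males (-0.66), Scn3a 44.9 and 54.6 CPM in females and males (-0.28), and Trpm5 110.1 and 92.4 CPM in females and males (0.25), with Trpc1 at -0.074. Scn8a had the highest mean r (0.285), Trpm2 (0.151) followed, and Scn3b had the lowest (-0.0645).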

How the data were processed

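The deposited count table holds expected counts per gene (estimated counts, in part fractional), which the authors did not scale between libraries, per the values in the file. The deposited log2-scale table holds the authors' variance-stabilised values. The submitters' processing notes name GRCm38 and DESeq2 (aligner and counter: not given in the sources used here). Per the labels' protocols, poly(A) RNA libraries were made after ERCC RNA had been added. Nothing says that replicates were pooled, and every library is a separate mouse.

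Expected counts were rounded. Genes were filtered with filterByExpr by sex and tested with edgeR 4.0.16 (R 4.3.3; TMM, quasi-likelihood F test, sex and number band as terms, Benjamini-Hochberg adjustment over all 16927 genes, threshold 0.05, effect female minus male). Intervals are the estimate ± 1.96 standard errors. Correlations used log2 CPM (prior count 2) with sex and band removed, limma 3.58.1 for p-values over all genes, and two-sided permutations within sex and band (100000 resamples, NumPy 2.4.6, SciPy 1.17.1, Python 3.11.15). Lengths, GC content and coding sequence come from GENCODE mouse release M21. CPM per kb divides by all exon bases within the deposited interval. Depth was 15120235 to 68757039 counts per library. Alternatives were DESeq2 1.42.0, limma-voom, other scalings, filters, covariates, bands and the deposited log2 values.

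In simulated counts with known answers over 16927 genes, 60% of 50 genes set to a 1.1-fold sex difference were recovered and 96% at 1.25-fold, with 3 false calls. The test for genes correlated with Abcc8 recovered 42% of 50 genes at a true r of 0.15 and 100% at 0.25 among 5000, with 7 false calls. Both simulations drew independent noise for each gene and had no differences between bands. In the real libraries, genes shared GC and length slopes and bands differed. The false calls above therefore do not give the rate of false calls in the real data. Named genes are the members, per member the 5 highest and 3 lowest r (mean CPM at least 5, no placeholder symbols), up to 4 genes of each list by the sex test, the 3 highest and 1 lowest of each list by mean r, and the highest and lowest neighbours within 1 Mb. Some genes that this rule names are not reported here. Any other gene named was picked with its values known, as stated beside it. The members and lists were chosen with earlier results of these data known. Titles number the mice and give the sex; no number occurs in both sexes.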

Additional observations from a re-analysis of the deposited data

How the results depend on the processing

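Of 90 values of member sex differences under 15 alternatives, 68 kept their direction and their side of the threshold. Abcc8 passed in band 2 alone (-0.18), with 10 marker scores (-0.10), with GC and length slopes as terms (-0.0635) and without band 4 (-0.0841), and was 0.0211 in band 4. Cacna1c did not pass with library size alone (-0.0688) or in bands 1 (-0.0171) and 3 (-0.20), and was 0.0494 in band 4. Cacnb2 did not pass with library size alone (-0.0270), in bands 1 (-0.0540), 2 (-0.0306) and 3 (-0.0605), or without band 4 (-0.0461). Cacna1d passed in band 2 (-0.11) and without band 4 (-0.0590), and had 0.00311 with library size alone and 0.0726 in band 4. Kcnj11 passed in band 2 (-0.12), and had 0.00809 with library size alone and 0.10 in band 4. Cacna1a was -0.11 in band 2. None of these opposite values passed. The alternatives with slopes were chosen after the data were seen.

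The genes differing by sex were 2859, 4682, 2622 and 4305 in bands 1 to 4 and 3754 with 10 marker scores, against 8561. Those higher in females were 1099, 2251, 1268, 1777 and 1576, and those lower 1760, 2431, 1354, 2528 and 2178, with 3192 by library size alone. Genes differing in spread were 423 with the sex median only, and member differences in spread were then 0.0167 for Abcc8, 0.0180 for Cacna1a, -0.00875 for Cacna1d and 0.0352 for Kcnj11, all opposite and not passing.

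Abcc8 with Kcnj11 passed under every alternative (r 0.291 to 0.637). Of 240 values for the pairs, 42 no longer passed, 3 newly passed and 16 were opposite. Positive pairs numbered 4, 7, 6 and 2 in bands 1 to 4 and 4 with the slopes removed, against 11. Negative pairs numbered 2 with the slopes or 5 principal components removed, and 0 in males and in bands 1, 3 and 4. The shares of all genes that passed in these settings are not given here, so these counts have no background beside them. Opposite values were, for Kcnj11 with Cacna1c, -0.261 with slopes and -0.146 with 5 components removed (both passing), -0.00741 and -0.0465 with 10 and 11 scores removed, -0.0399 in females, -0.142 in band 4 and -0.0680 with sex alone removed. Abcc8 with Cacnb2 had values of both signs, with 0.308 in band 1 passing. Not passing were this pair at -0.0412 (slopes), -0.0250 (Spearman), -0.0712 (males), -0.135 (band 2) and -0.234 (band 4), Abcc8 with Cacna1c at -0.0331 (band 4), Cacna1a with Cacnb2 at -0.0367 (slopes), Kcnj11 with Cacna1a at -0.0638 (slopes) and Kcnj11 with Cacna1d at -0.0132 (sex alone removed). With band left in, Kcnj11 with Cacna1a had 0.633. The causes were not tested; single bands hold fewer mice.

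No paired analysis was possible because no mouse number occurs in both sexes.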

Other observations

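The genes below were singled out after their values were seen. The strongest correlation of Abcc8 by size was negative and belonged to 2610021A01Rik, an unnamed gene at chr7:41599230-41628533 (GRCm38), 4.53 Mb away on the same chromosome, with an r of -0.647 (rho -0.625, adjusted p = 1.35e-41 in limma). Fuz, the highest positive one, lies 1.24 Mb away. Of the 100 genes with the largest r by size, 3 lay within 1 Mb of Abcc8 and 7 between 1 and 5 Mb, measured between gene midpoints, where these windows hold 0.337% and 0.437% of the tested genes. For Kcnj11 the counts were 0 and 5 of 100, in windows with 0.354% and 0.419% of the genes. Cacna1a had 3 and 1 of 100, in windows with 0.343% and 0.213% of the genes, Cacnb2 had 1 and 2, in windows with 0.0650% and 0.201%, and Cacna1c and Cacna1d had 0 of 100 in both. These are descriptions; founder haplotypes were not analysed here.

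The closest transcript to Cacna1a was Gm16183, the antisense gene inside it, with an r of 0.781 (rho 0.746) at a mean of 0.864 CPM. It shares 435 exon bases with Cacna1a. Cacnb2 had its highest r, 0.499 (rho 0.485), with Gm37891, annotated within it on the same strand at a mean of 1.43 CPM.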
